A study of Mus musculus with 19 samples.

Results

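Axon guidance genes code for the cues that steer growing nerve fibres and for the receptors that read them, and 70 of them were followed here across mouse embryonic stem cells (ESC) and neural progenitors (NeuP). They were taken by symbol from the 24016 transcripts of the RNA table: 37 ligands (8 ephrins, 20 semaphorins, 3 Slits and 6 netrins) and 33 receptors (14 Eph receptors, 9 plexins, 2 neuropilins, 4 Robo and 4 Unc5 receptors). The symbol pattern read letter by letter gave 68 names, of which Unc50, an unrelated gene, and an antisense transcript named after Plxna4 were left out, while Unc5a, Unc5b, Unc5c and Unc5d were added. The choice went by symbol and not by level, though it was made with earlier results of these data known.

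The study asked how the nuclear pore protein Nup153 bears on gene expression and chromatin in ESC. RNA was sequenced from 5 libraries. The ESC were of the E14 line, grown on irradiated embryonic fibroblasts with LIF. A lentivirus carried either a non-target hairpin (the control, 1 library) or a hairpin against Nup153 (hairpin #2 and hairpin #4, 1 library each), so all ESC libraries had been through transduction and puromycin selection, for at least 4 days. The 2 NeuP libraries came from cells with no hairpin, made through embryoid bodies and Noggin and grown in FGF2 and EGF, and no parent line is named for them. NeuP and control ESC therefore differ in virus, drug, medium and feeder layer as well as in cell type, and these cannot be told apart. Beside RNA there were 9 peak lists. Chromatin immunoprecipitation gave 7, for Ring1B (control, hairpin #2, hairpin #4, NeuP), Cbx7 (control) and Oct4 (control, hairpin #2). DamID, which marks DNA that a tagged protein has come near, gave 2, for Nup153 and Oct4, from E14 ESC that carried no hairpin and a Dam fusion behind a heat shock promoter.

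Ephrins are membrane-bound ligands of the Eph receptor kinases, and signal into both of the touching cells. Semaphorins, secreted or membrane-bound, act through plexins, and most of the secreted class 3 members need a neuropilin beside the plexin. Slits repel through Robo receptors, and netrins attract through Dcc or repel through Unc5 receptors; all of these systems also serve cell sorting, migration and vessel growth outside the nervous system.

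The RNA libraries held between 24.3 and 32.2 M fragments, as recovered from the step size of the low values. Levels are in FPKM, fragments per kilobase of transcript and M fragments. Summed over 8 ESC markers, the level was 1557 to 1767 FPKM in the 3 ESC libraries and 118 and 91.5 FPKM in NeuP, where Sox2, which both cell types express, made up most of it. Summed over 9 neural progenitor markers it was 158 to 202 FPKM in ESC and 3884 and 4163 FPKM in NeuP, though Sox1 stood at only 2.16 and 1.82 FPKM there. Nup153 RNA was 39.4 FPKM in the control, and 20.9 and 17.4 FPKM with hairpins #2 and #4.

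Most axon guidance genes that could be tested were called as different between ESC and NeuP, in both directions. Of the 52 that reached 1 FPKM in at least 1 library and were tested, 19 (36.5%) rose in NeuP, where 18.3% of all 13750 tested genes did, and 11 (21.2%) fell, where 24.9% of all tested genes did. The remaining 22 were not called. Calls are from limma on log2(FPKM + 1), with Benjamini-Hochberg adjusted p under 0.05 across all tested genes, and every log2 change below is on that scale, which understates the change of genes with low FPKM. The median log2 change was 0.46 over the 52 and -0.26 over all tested genes. Quantile normalization moved these medians to 0.68 and -0.06, so that their distance was 0.72 before and 0.73 after. With this scaling 17 were called higher (32.7%, against 21.1% of all tested genes) and 11 lower (21.2%, against 20.8%). The share called lower was then near that of all tested genes. With no filter on low values, 11 of 70 were called higher and 12 lower, against 7.86% and 14.6% of all 24016 genes. In a fit without either one of the hairpin libraries, 3 of the 52 were called higher and 4 lower, against 2.32% and 11.0% of all tested genes without hairpin #2 and 2.31% and 10.9% without hairpin #4. Receptors were called higher in 10 of 23 tested and lower in 4, ligands higher in 9 of 29 and lower in 7. Both NeuP libraries lay above all 3 ESC libraries for 23 of the 52 genes (44.2%, against 31.4% of all tested genes) and below all 3 for 15 (28.8%, against 46.4%). In bulk RNA, fewer cells that express a gene and less RNA per cell cannot be told apart.

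**Figure D1:**
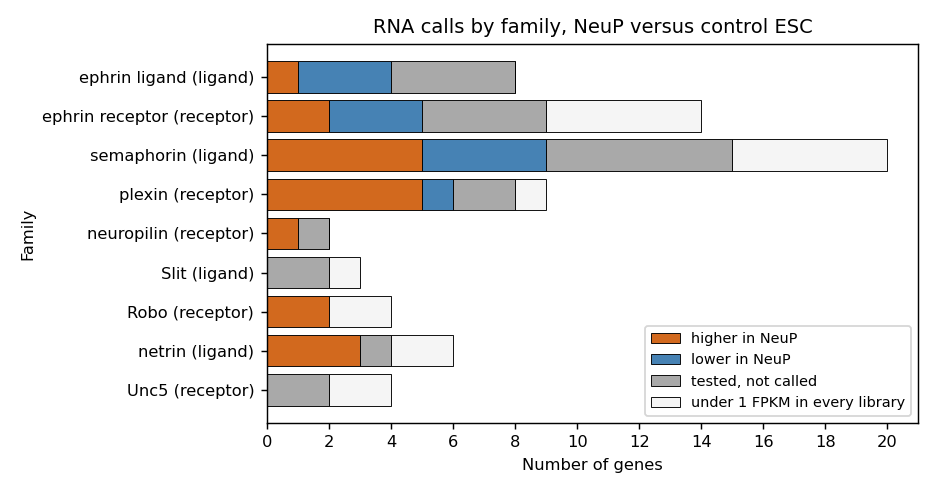
Number of genes per family (horizontal axis) by their RNA call in NeuP against control ESC, for the 70 axon guidance genes. Orange parts are called higher, blue parts lower, dark grey parts tested and not called, and light grey parts under 1 FPKM in all 5 libraries. Plexins were called higher in 5 of 8 tested and netrins in 3 of 4, whereas ephrin ligands were called lower in 3 of 8.

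Among semaphorins, 5 of 15 tested genes rose and 4 fell. Sema6d, a transmembrane semaphorin, stood at 0.111 FPKM in the control library, 0.249 and 0.359 with hairpins #2 and #4, and 18.5 and 38 in NeuP replicates 1 and 2. Its log2 change of 4.63 ± 0.48 (SE) was the largest rise of any of the 52 genes (adjusted p = 0.00696). Sema6a, a transmembrane ligand of A-type plexins, stood at 0.659, 0.999 and 0.845 FPKM in the control, hairpin #2 and hairpin #4 libraries, against 26.1 and 28.1 FPKM in the NeuP replicates. Its replicates lay close together, and the change was 4.08 ± 0.17 (adjusted p = 0.00238). Sema3a, the secreted semaphorin best known for collapsing growth cones, had 0.006 FPKM in the control library, 0.03 and 0.043 with hairpins #2 and #4, and 7.04 and 15.0 in NeuP replicates 1 and 2, the control value being 1 recovered fragment. It rose by 3.50 ± 0.47 (adjusted p = 0.0114), with replicate 2 the higher. Sema5a (2.03 ± 0.20, adjusted p = 0.00656) and Sema5b (1.25 ± 0.27, adjusted p = 0.033), membrane proteins with thrombospondin repeats, rose as well.

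The semaphorin that led in ESC fell. Sema4d, a transmembrane ligand of plexin-B1, was the highest semaphorin of the control, at 16.7, 15.3 and 14.9 FPKM in the control, hairpin #2 and hairpin #4 libraries, against 0.996 and 0.452 FPKM in the NeuP replicates. The fall was -3.38 ± 0.26 (adjusted p = 0.00421), and the ESC and NeuP values did not overlap. Secreted Sema3b measured 3.23 FPKM (control), 2.82 and 2.14 FPKM (hairpins #2 and #4), and 0.277 and 0.237 FPKM (NeuP replicates) (log2 change -1.75 ± 0.19, adjusted p = 0.00766). Transmembrane Sema4f was nearly lost, at 2.07 FPKM in the control library, 2.43 and 2.56 with hairpins #2 and #4, and 0.015 and 0.031 in NeuP replicates 1 and 2, of which the NeuP values are 2 and 3 recovered fragments. Its log2 change was -1.59 ± 0.14 (adjusted p = 0.0052). Sema4a fell by -1.40 ± 0.18 (adjusted p = 0.0104). Sema4b, one of the higher semaphorins in both cell types, had 11.6 FPKM (control), 11.1 and 11.4 FPKM (hairpins #2 and #4), and 20.9 and 15.9 FPKM (NeuP replicates) and was not called (log2 change 0.61 ± 0.24, adjusted p = 0.123). Sema4g (6.59 FPKM (control), 7.29 and 8.16 FPKM (hairpins #2 and #4), and 11.4 and 7.72 FPKM (NeuP replicates)) and Sema3f (1.25 FPKM (control), 0.942 and 0.989 FPKM (hairpins #2 and #4), and 0.719 and 1.17 FPKM (NeuP replicates)) were not called either.

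Among receptors for semaphorins, 5 of 8 tested plexins rose and 1 fell, and 1 of 2 neuropilins rose. Plxnc1, the receptor of Sema7a, stood at 0.084 FPKM in the control library, 0.256 and 0.274 with hairpins #2 and #4, and 11.4 and 8.53 in NeuP replicates 1 and 2. It rose by 3.32 ± 0.22 (adjusted p = 0.0034), while Sema7a itself stayed under 1 FPKM in every library. Plxnb3, a receptor of Sema5a, had 0.356, 0.15 and 0.236 FPKM in the control, hairpin #2 and hairpin #4 libraries, against 9.60 and 14.4 FPKM in the NeuP replicates (log2 change 3.24 ± 0.29, adjusted p = 0.00521). Nrp1, the ligand-binding partner of plexins for Sema3a, stood at 0.134 FPKM in the control library, 0.408 and 0.399 with hairpins #2 and #4, and 9.39 and 9.43 in NeuP replicates 1 and 2. The NeuP values were almost equal, and the change was 3.20 ± 0.15 (adjusted p = 0.0024). Plxna2 had 0.928 FPKM (control), 1.67 and 1.68 FPKM (hairpins #2 and #4), and 10.6 and 14.2 FPKM (NeuP replicates) (log2 change 2.78 ± 0.24, adjusted p = 0.00479). Plxnb1, the Sema4d receptor, rose by 2.71 ± 0.68 (adjusted p = 0.0457) with replicates at 38.3 and 13.1 FPKM, and Plxna3 rose by 1.18 ± 0.26 (adjusted p = 0.0346).

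Plxna1 went the other way. It had 34.9, 45 and 42.7 FPKM in the control, hairpin #2 and hairpin #4 libraries, against 12.8 and 10.5 FPKM in the NeuP replicates, a fall of -1.51 ± 0.22 (adjusted p = 0.0136) that still left it above 10 FPKM. Plxnb2, the highest plexin of the control and of both NeuP replicates, had 45 FPKM (control), 37.3 and 48.8 FPKM (hairpins #2 and #4), and 43.0 and 29.1 FPKM (NeuP replicates) and was not called (log2 change -0.34 ± 0.35, adjusted p = 0.469). Nrp2, the receptor of other class 3 semaphorins and the higher neuropilin of the control, had 1.15 FPKM in the control library, 1.07 and 1.20 with hairpins #2 and #4, and 16.1 and 2.44 in NeuP replicates 1 and 2. Both NeuP values exceeded all ESC values, but they lay 6.59-fold apart, and the change of 1.84 ± 1.05 was not called (adjusted p = 0.227).

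Of the 8 tested ephrin ligands 3 fell and 1 rose. Efna3, a lipid-anchored ligand of EphA receptors and the highest ephrin of the control, had 34.9 FPKM in the control library, 18.1 and 18.1 with hairpins #2 and #4, and 2.12 and 1.08 in NeuP replicates 1 and 2. It fell by -3.82 ± 0.31 (adjusted p = 0.00455), the largest fall of the 52 genes. Its neighbour Efna1 had 6.41, 5.39 and 4.20 FPKM in the control, hairpin #2 and hairpin #4 libraries, against 0.4 and 0.419 FPKM in the NeuP replicates (log2 change -2.39 ± 0.20, adjusted p = 0.00473). Efna4, the third gene of this group on chromosome 3, had 6.10 FPKM (control), 6.72 and 7.43 FPKM (hairpins #2 and #4), and 6.22 and 4.28 FPKM (NeuP replicates) and was not called (log2 change -0.20 ± 0.27, adjusted p = 0.564), so it was the highest ephrin in NeuP. In mm9 Efna1, Efna3 and Efna4 lie in a row at chr3:89075652-89083567, chr3:89118873-89126801 and chr3:89137315-89141950, with gaps of 35.3 and 10.5 kb. Transmembrane Efnb1 fell by -0.88 ± 0.16 (adjusted p = 0.0229). Efna5 had 0.525 FPKM (control), 0.953 and 0.755 FPKM (hairpins #2 and #4), and 2.07 and 2.88 FPKM (NeuP replicates) and rose by 1.18 ± 0.22 (adjusted p = 0.0224), while Efnb2, with 4.96 FPKM (control), 6.93 and 5.21 FPKM (hairpins #2 and #4), and 1.42 and 2.61 FPKM (NeuP replicates), was not called (adjusted p = 0.0855).

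Eph receptors split, with 2 of 9 tested genes higher and 3 lower. Epha2 had 13.7 FPKM in the control library, 20.6 and 18.9 with hairpins #2 and #4, and 0.127 and 0.611 in NeuP replicates 1 and 2. It fell by -3.45 ± 0.29 (adjusted p = 0.00469), and the highest NeuP value was under 1 FPKM. Epha1 stood at 2.36, 2.13 and 2.35 FPKM in the control, hairpin #2 and hairpin #4 libraries, against 0 and 0 FPKM in the NeuP replicates, listed at 0 in both NeuP libraries (log2 change -1.75 ± 0.14, adjusted p = 0.00464). Ephb4, the receptor of ephrin-B2 and the highest Eph receptor of the control, had 14.3 FPKM (control), 19.1 and 19.8 FPKM (hairpins #2 and #4), and 4.99 and 4.39 FPKM (NeuP replicates) and fell by -1.43 ± 0.19 (adjusted p = 0.0106). In the other direction, Ephb1 had 0.087 FPKM in the control library, 0.191 and 0.321 with hairpins #2 and #4, and 20.0 and 4.6 in NeuP replicates 1 and 2, so that the NeuP replicates differed 4.36-fold. The rise of 3.32 ± 0.87 only just passed (adjusted p = 0.0497) and was lost under 6 of 10 alternative settings. Epha5 rose from 1 recovered fragment in the control to 6.0 and 2.92 FPKM (2.38 ± 0.40, adjusted p = 0.0182). Epha4, the highest Eph receptor in NeuP replicate 1 and below Ephb3 in replicate 2, had 10.2, 12.3 and 13.5 FPKM in the control, hairpin #2 and hairpin #4 libraries, against 31.9 and 11.4 FPKM in the NeuP replicates and was not called (adjusted p = 0.347), nor was Ephb3, with 13.7 FPKM (control), 14.3 and 15.4 FPKM (hairpins #2 and #4), and 21.1 and 12.2 FPKM (NeuP replicates) (adjusted p = 0.666).

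Of the netrins, 3 of 4 tested genes rose and 0 fell. Ntn1, the secreted netrin that attracts through Dcc, had 0.378 FPKM in the control library, 0.616 and 0.568 with hairpins #2 and #4, and 38.2 and 18.0 in NeuP replicates 1 and 2. Its rise of 4.31 ± 0.49 was the second largest of the 52 genes (adjusted p = 0.00822), and every NeuP value lay above every ESC value although the replicates differed 2.12-fold. Ntn4 (2.30 ± 0.16, adjusted p = 0.00365) and Ntn3 (1.60 ± 0.35, adjusted p = 0.0328) rose too. Ntng2, a membrane-anchored netrin and the highest one in the control, had 1.49, 1.58 and 1.24 FPKM in the control, hairpin #2 and hairpin #4 libraries, against 4.47 and 0.754 FPKM in the NeuP replicates, with ESC values between the NeuP replicates, and was not called (log2 change 0.31 ± 0.75, adjusted p = 0.749). Neither of the tested Unc5 receptors was called. Unc5b, a netrin receptor, had 8.08 FPKM (control), 9.95 and 9.80 FPKM (hairpins #2 and #4), and 0.861 and 3.16 FPKM (NeuP replicates), lower in both NeuP libraries (log2 change -1.71 ± 0.54, adjusted p = 0.0764).

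Both tested Robo receptors rose, and all 3 of their Slit ligands were low in every library. Robo1 had 1.78 FPKM in the control library, 3.00 and 2.53 with hairpins #2 and #4, and 33.2 and 19.1 in NeuP replicates 1 and 2 (log2 change 3.24 ± 0.39, adjusted p = 0.00899). Robo2 was listed at 0 in the control, at 0.088 FPKM with each hairpin and at 22.5 and 6.44 FPKM in the NeuP replicates (log2 change 3.72 ± 0.76, adjusted p = 0.0279). Robo3 (0.151 FPKM (control), 0.232 and 0.084 FPKM (hairpins #2 and #4), and 0.152 and 0.079 FPKM (NeuP replicates)) and Robo4 (0.161 FPKM (control), 0.061 and 0.107 FPKM (hairpins #2 and #4), and 0.093 and 0.022 FPKM (NeuP replicates)) never reached 1 FPKM. Slit2 had 0.536, 1.04 and 1.04 FPKM in the control, hairpin #2 and hairpin #4 libraries, against 0.302 and 1.00 FPKM in the NeuP replicates and Slit3 0.588, 1.11 and 1.04 FPKM in the control, hairpin #2 and hairpin #4 libraries, against 0.207 and 0.208 FPKM in the NeuP replicates, and neither was called in NeuP (adjusted p = 0.859 and 0.0865). No Slit averaged 1 FPKM in NeuP, and the direction of Slit3 depended on the scaling, being upward after quantile normalization.

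**Figure D2:**
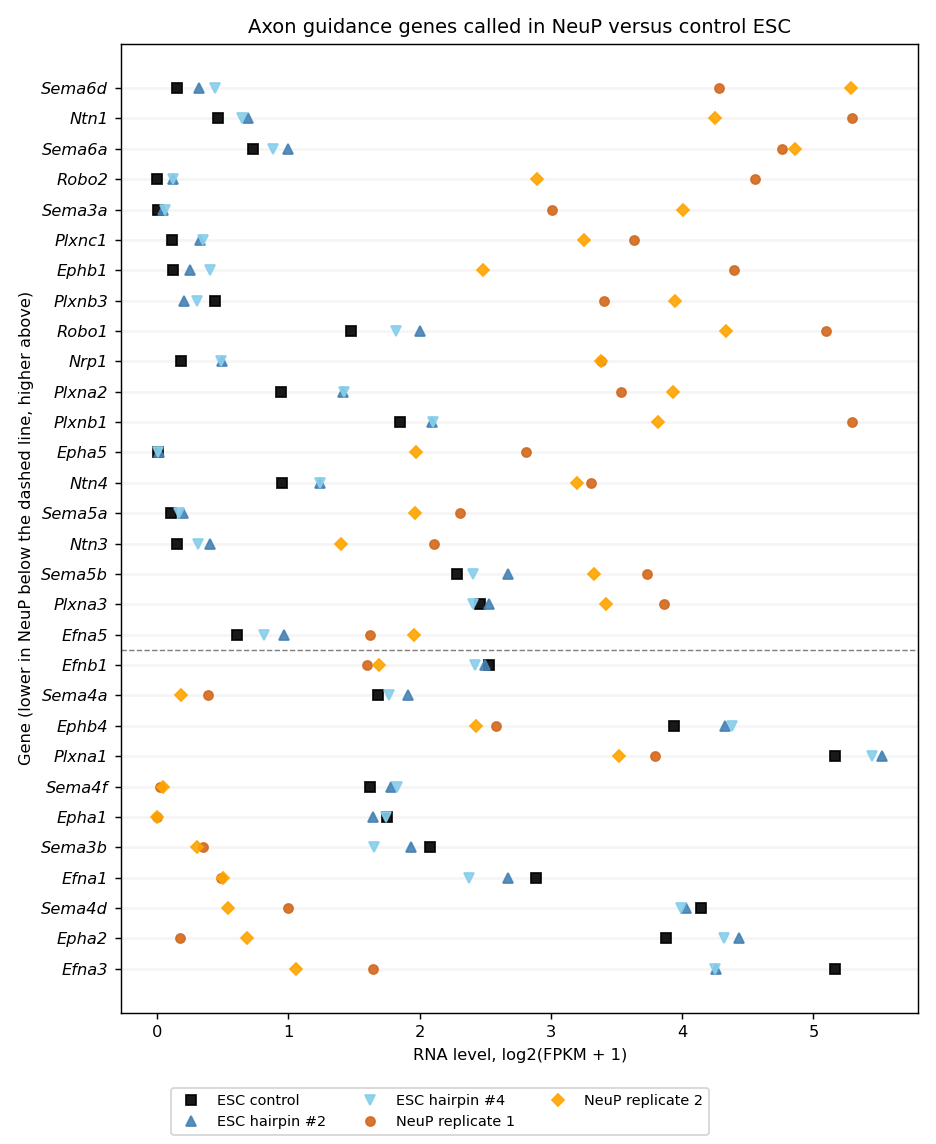
RNA level on a log2(FPKM + 1) axis for the 30 genes called in NeuP against control ESC, 1 row per gene ordered by fitted change, with 1 symbol per library (square, control; triangles, hairpins #2 and #4; circle and diamond, NeuP replicates 1 and 2). For all 19 genes above the dashed line both NeuP symbols lie to the right of the 3 ESC symbols, and for all 11 below it to their left. The genes were chosen by calls from these same values, so this separation is no further evidence of a difference.

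Altogether 18 members stayed under 1 FPKM in all 5 libraries and were not tested: Epha3, Epha6, Epha7, Epha8, Epha10, Ntn5, Ntng1, Plxna4, Robo3, Robo4, Sema3c, Sema3d, Sema3e, Sema3g, Sema7a, Slit1, Unc5a and Unc5c. The highest value among them was 0.945 FPKM.

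The NeuP replicates were unlike in part of this gene set. On the FPKM + 1 scale, 7 of the 52 genes were more than 2-fold higher in replicate 1 (Epha4, Ephb1, Nrp2, Ntn1, Ntng2, Plxnb1 and Robo2), as were 6.84% of all tested genes, and Sema6d and Unc5b were more than 2-fold higher in replicate 2, as were 9.3% of all tested genes. Markers also differed between the replicates, in both directions: 4 of 5 astrocyte and 6 of 9 progenitor markers were higher in replicate 1 and the others in replicate 2. In replicates 1 and 2, Gfap was 173 and 0.563 FPKM and Hes5 84.5 and 9.52 FPKM, whereas Slc1a3 was 273 and 321 FPKM, Nes 60.3 and 124 FPKM and Fabp7 2454 and 3143 FPKM. Summed over 5 astrocyte markers, the level was 536 and 353 FPKM in NeuP and 14.5 to 17.3 FPKM in ESC, with Aldh1l1 higher in ESC. Summed over 8 fibroblast markers it was 39.2 and 96.7 FPKM in NeuP and 8.05 to 12.7 FPKM in ESC. Col3a1 was the highest of these in NeuP, and 7 of the 8 were higher in replicate 2. Col1a1, Col1a2 and Pdgfrb were higher in every ESC library than in NeuP. Summed over 8 neuron markers the level was 247 and 135 FPKM in NeuP, mostly Map2, and 71.5 to 80.9 FPKM in ESC, mostly Stmn2, with Rbfox3 and Syt1 at or under 1.14 FPKM throughout. Their part in the changes of the guidance genes was not tested.

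Genes that work beside these ligands and receptors were called higher more often than lower in NeuP. Over all tested genes, 18.3% were called higher and 24.9% lower. Of 16 tested co-receptors and adhesion partners 11 rose and 2 fell, of 3 tested other ligands 3 rose, and of 41 tested cytoplasmic effectors 19 rose and 5 fell. Dcc, the attractive netrin receptor, had 0.042, 0.118 and 0.038 FPKM in the control, hairpin #2 and hairpin #4 libraries, against 10.3 and 8.09 FPKM in the NeuP replicates (log2 change 3.28 ± 0.21, adjusted p = 0.00313). Sdc3, a heparan sulphate proteoglycan of the cell surface, had 2.19 FPKM (control), 2.71 and 3.35 FPKM (hairpins #2 and #4), and 211 and 93.9 FPKM (NeuP replicates) (log2 change 5.47 ± 0.56, adjusted p = 0.00677). Lrrc4c, the partner of netrin-G1, was listed at 0 in all ESC libraries and at 32.2 and 16.4 FPKM in NeuP, whereas Ntng1 itself stayed under 1 FPKM. Draxin, a secreted repellent that binds Dcc, rose by 5.15 ± 0.96 (adjusted p = 0.023), and Fyn, a kinase downstream of several of these receptors, by 3.57 ± 0.35 (adjusted p = 0.00629). Among the falls were Mical1 (-2.82 ± 0.31, adjusted p = 0.00755) and Mical3 (-2.27 ± 0.17, adjusted p = 0.00405), enzymes that oxidise actin below plexins, and the adhesion protein Cntn2 (-1.87 ± 0.17, adjusted p = 0.00557).

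After Nup153 knockdown no axon guidance gene was called. limma called 0 of the 52, as it called 0.0% of all 13750 tested genes, with the 2 hairpins taken as replicates against the single control library. This comparison uses the same control library as the NeuP comparison. At an unadjusted p under 0.05 there were 1 member higher (Slit3) and 1 lower (Efna3), where 4.49% and 1.43% of all tested genes passed, and voom on recovered fragments also called 0 after adjustment and 1 in each direction before it. Both hairpins lay above the control for 37 of the 52 genes (71.2%, against 55.0% of all tested genes) and below it for 9 (17.3%, against 29.5%). Summed markers of other cell types went in both directions with the hairpins. In the control, hairpin #2 and hairpin #4 libraries, neuron markers summed to 80.9, 71.5 and 80.1 FPKM. In the same order, astrocyte markers summed to 17.3, 14.5 and 16.0 FPKM, and microglia or macrophage markers to 24.0, 17.2 and 14.5 FPKM. Oligodendrocyte markers summed to 5.6, 6.0 and 6.5 FPKM, and endothelial markers to 62.2, 59.4 and 66.7 FPKM. A single gene made up most of 3 of these sums. In the same order, Pecam1 (endothelial) had 59.0, 53.7 and 61.5 FPKM and Cd68 (microglia or macrophage) 23.8, 17.1 and 14.3 FPKM. Aldh1l1 (astrocyte) had 14.9, 11.6 and 11.6 FPKM. Summed over 5 endoderm markers, the level was 13.2 FPKM in the control and 19.8 and 24.8 FPKM with hairpins #2 and #4, 4 of the 5 (Gata4, Gata6, Foxa2 and Sox17) being higher with both. Over the 8 fibroblast markers it was 8.05 FPKM against 12.7 and 12.2 FPKM, with 3 higher with both hairpins and 2 lower, and over the 9 progenitor markers 158 FPKM against 202 and 192 FPKM, with 6 higher and 0 lower. Their part in the guidance genes' differences was not tested. The median log2 change was 0.20 over the 52 genes and 0.08 over all tested genes; quantile normalization brought these to 0.035 and 0.0018, with 32 members above and 20 below 0, in place of 40 and 12. None of the 16 co-receptors, 3 other ligands and 41 effectors was called.

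Efna3 lay furthest below the control. It had 34.9 FPKM in the control and 18.1 and 18.1 FPKM with hairpins #2 and #4, so that both hairpins were at about the same level, and its log2 change was -0.91 ± 0.31 (adjusted p = 0.831). The next differences below the control that both hairpins shared were -0.36 ± 0.20 for Efna1 (adjusted p = 0.907), -0.29 ± 0.19 for Sema3b (adjusted p = 0.954), -0.20 ± 0.21 for Sema3f and -0.19 ± 0.29 for Plxnb3 (adjusted p = 1 for each of these last). For Efna1 the values were 6.41 FPKM in the control and 5.39 and 4.20 FPKM with hairpins #2 and #4, so hairpin #4 lay lower than hairpin #2. The control lay above both hairpins in each case.

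On the upper side, Ephb6, an Eph receptor without kinase activity, had 0.485 FPKM in the control and 1.28 and 1.23 FPKM with hairpins #2 and #4 (log2 change 0.60 ± 0.26, adjusted p = 0.856). Efnb3, a transmembrane ephrin, had 1.11 FPKM in the control and 1.98 and 2.19 FPKM with hairpins #2 and #4 (log2 change 0.55 ± 0.28, adjusted p = 0.886). Epha2 had 13.7 FPKM in the control and 20.6 and 18.9 FPKM with hairpins #2 and #4 (log2 change 0.50 ± 0.29, adjusted p = 0.916). Hairpin values lay together above the control in all of these, and likewise for Plxna2 (0.47 ± 0.24, adjusted p = 0.874) and Efna2 (2.35 FPKM in the control and 3.52 and 3.69 FPKM with hairpins #2 and #4; 0.46 ± 0.21, adjusted p = 0.856). Slit3 had 0.588 FPKM in the control and 1.11 and 1.04 FPKM with hairpins #2 and #4 (log2 change 0.39 ± 0.13, adjusted p = 0.837). Each of these differences rests on 1 control library.

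**Figure D3:**
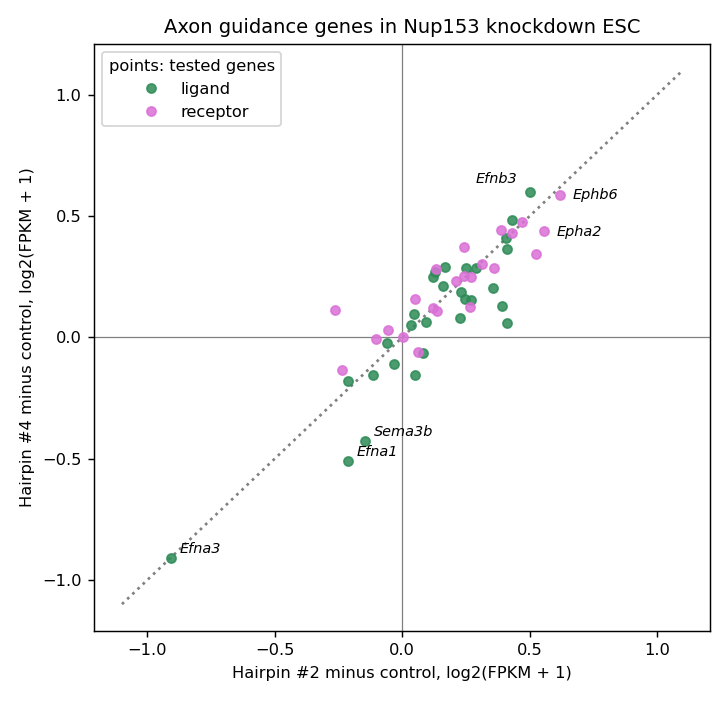
Difference from the control library on the log2(FPKM + 1) scale, hairpin #2 on the horizontal and hairpin #4 on the vertical axis, 1 point per tested axon guidance gene (green, 29 ligands; pink, 23 receptors). The dotted line marks equal differences; on the deposited scale 37 points lie at the upper right and 9 in the lower left, with Efna3 alone near -0.91 on both axes.

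The chromatin proteins Cbx7 and Ring1B both belong to Polycomb repressive complex 1, which holds developmental genes silent in ESC, mostly at CpG-rich starts. A peak was counted for a gene when it lay within 2 kb of its transcription start site (TSS), with 1 TSS per gene in mm9, and shares are given beside those of all 24016 transcripts. A Cbx7 peak of control ESC lay at 37 of the 70 axon guidance genes (52.9%, against 13.2% of all genes). The families were unequal in this: all 3 Slits, all 4 Unc5 receptors and both neuropilins had one, as did 3 of 4 Robo receptors, 4 of 6 netrins, 10 of 20 semaphorins, 5 of 14 Eph receptors, 3 of 8 ephrins and 3 of 9 plexins. Ring1B peaks lay at 13 members in control ESC (18.6%, against 8.1% of all genes), at 47 with hairpin #2 (67.1%, against 24.0%), at 23 with hairpin #4 (32.9%, against 9.24%) and at 17 in NeuP (24.3%, against 10.4%). These lists rested on 4.99, 30.8, 9.95 and 33.2 M tags in that order, the Cbx7 list on 22.5 M, and each on 1 library, so that depth and condition cannot be told apart in the Ring1B counts. Of the 37 members with Cbx7, 33 had Ring1B in at least 1 ESC list (89.2%, against 78.7% of all genes with Cbx7). The other 4 were Epha6, Ntng2, Sema3a and Sema7a.

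**Figure D4:**
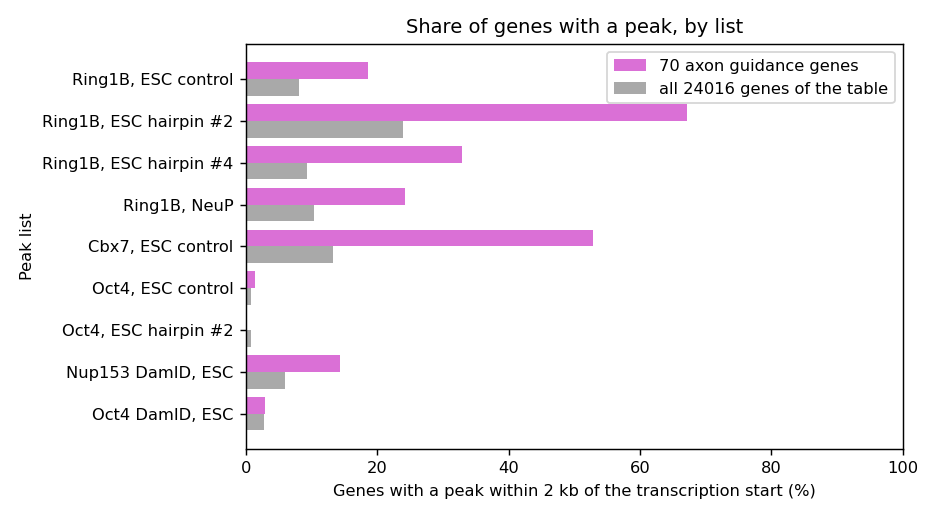
Share of genes (percent, horizontal axis from 0 to 100) with a peak within 2 kb of the TSS in each of the 9 peak lists, pink for the 70 axon guidance genes and grey for all 24016 transcripts. The pink bar exceeds the grey bar most in the Cbx7 list (52.9% against 13.2%) and the Ring1B list of hairpin #2 (67.1% against 24.0%), while both bars of the Oct4 lists are short.

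Peaks at the neuropilins were wide. At Nrp1 the Cbx7 peak covered chr8:130880846-130885135 (mm9), across the TSS, and the Ring1B peak of control ESC covered 501 bp at chr8:130883782-130884282, wholly inside it. At Nrp2 the Cbx7 peak, chr1:62748066-62754674, was the widest of any member at 6609 bp. Ntn1, which lies on the reverse strand, had Cbx7 over 4537 bp at chr11:68196510-68201046 and Ring1B in all 4 Ring1B lists. Among members with a peak, it covered the TSS itself at 0 of 13 for Ring1B in control ESC (against 17.5% of all genes with such a peak), at 24 of 47 with hairpin #2 (51.1%, against 46.9%) and at 16 of 37 for Cbx7 (43.2%, against 41.0%), so that the last 2 shares were near those of all genes. The median width of the members' peaks was 564 bp for Ring1B in control ESC, 1067 bp with hairpin #2 and 1842 bp for Cbx7.

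The sequence before the starts was read to show how rich in CpG these genes are. RefSeq promoters (GRCm38.p6) were found for 61 of the 70 genes, and the 250 bases before each start were searched for CpG, the dinucleotide CG, which reads the same on both strands; 93.4% of all promoters of this length hold at least 1. The median was 16 CpG in the members and 10 over 16842 genes. Members with a Cbx7 peak had a median of 19 (n = 31) and those without 12.2 (n = 30), where all genes had 15 and 9. Single members departed from this: Epha8 (46 CpG) and Ephb6 (27) had no peak in any list, and Sema3a (2) had Cbx7 and rose in NeuP. The following were picked after their values were seen, with CpG in capitals, each 5′ to 3′ on its gene's strand. Efna5 (32 CpG), Plxnc1 (22) and Nrp1 (11) had Cbx7 and rose in NeuP, and Sema4f (4) had no peak in any list and fell. They lie at chr17:62881318-62881567 (reverse strand), chr10:94944846-94945095 (reverse), chr8:128358823-128359072 (forward) and chr6:82939770-82940019 (reverse), in a build other than that of the peaks.
Efna5: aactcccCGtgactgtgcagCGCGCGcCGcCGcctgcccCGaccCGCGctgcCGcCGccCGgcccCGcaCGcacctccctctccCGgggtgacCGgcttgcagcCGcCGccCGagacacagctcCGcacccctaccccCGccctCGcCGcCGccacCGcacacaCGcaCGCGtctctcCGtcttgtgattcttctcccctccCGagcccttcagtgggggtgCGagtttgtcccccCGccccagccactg
Plxnc1: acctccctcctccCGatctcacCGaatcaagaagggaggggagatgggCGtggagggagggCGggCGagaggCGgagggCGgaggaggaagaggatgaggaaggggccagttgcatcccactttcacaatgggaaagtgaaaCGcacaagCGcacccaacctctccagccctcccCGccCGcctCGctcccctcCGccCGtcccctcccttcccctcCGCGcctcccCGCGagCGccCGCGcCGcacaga
Nrp1: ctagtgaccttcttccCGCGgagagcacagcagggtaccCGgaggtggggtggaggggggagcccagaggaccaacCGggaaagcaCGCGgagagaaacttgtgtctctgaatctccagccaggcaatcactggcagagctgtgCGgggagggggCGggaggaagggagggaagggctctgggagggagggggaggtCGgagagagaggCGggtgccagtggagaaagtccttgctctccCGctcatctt
Sema4f: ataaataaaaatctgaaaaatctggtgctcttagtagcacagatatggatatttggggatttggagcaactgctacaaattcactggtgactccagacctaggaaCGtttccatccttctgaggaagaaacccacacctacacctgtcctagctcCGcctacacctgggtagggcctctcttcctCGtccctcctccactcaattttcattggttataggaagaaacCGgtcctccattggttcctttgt

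Set beside the RNA, Cbx7 lay at 13 of the 19 members that rose in NeuP (68.4%, against 26.9% of all genes that rose), at 1 of the 11 that fell (Efna3; 9.09%, against 11.8%), at 10 of the 22 not called (45.5%, against 9.01%) and at 13 of the 18 under 1 FPKM (72.2%, against 13.5%). Members with a Cbx7 peak had a median of 0.288 FPKM in the control, 27 of 37 (73.0%) being under 1 FPKM, and members without one had 2.61 FPKM, 10 of 33 (30.3%) being under 1 FPKM. All genes were split in the same direction, with a median of 0.284 FPKM and 66.8% under 1 FPKM where Cbx7 was present, and 1.17 FPKM and 49.0% where it was not. The members with Cbx7 that rose were Efna5, Epha5, Ephb1, Nrp1, Ntn1, Ntn4, Plxnc1, Robo1, Robo2, Sema3a, Sema5a, Sema5b and Sema6a. All Slits and Unc5 receptors had Cbx7, and none of those tested was called higher.

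Ring1B in NeuP lay at 10 of the 19 members that rose (52.6%, against 23.9% of all genes that rose) and at 1 of the 11 that fell (Ephb4; 9.09%, against 8.13%). Members with a NeuP peak had medians of 12.3 and 11.4 FPKM in the NeuP replicates, and members without one 0.719 and 1.02 FPKM. Over all genes these medians were 7.63 and 7.64 FPKM with a NeuP peak and 0.237 and 0.229 FPKM without. Ring1B was present at 5 members in both control ESC and NeuP (Ephb4, Ntn1, Sema4b, Sema5b and Sema6a; 7.14%, against 1.99% of all genes). It was listed in control ESC and not in NeuP at 8 (11.4%, against 6.11%): Efna5, Efnb2, Ephb1, Ephb3, Nrp1, Nrp2, Plxna4 and Robo3. Of these, Efna5, Ephb1 and Nrp1 rose, Efnb2, Ephb3 and Nrp2 were not called, and Plxna4 and Robo3 stayed under 1 FPKM. The share of all genes of this kind that rose was not counted. Plxna4 had 0.245 FPKM (control), 0.396 and 0.353 FPKM (hairpins #2 and #4), and 0.649 and 0.286 FPKM (NeuP replicates). Beyond the 2 kb window, NeuP Ring1B peaks lay from -3202 to -2702 bp relative to the TSS at Efna5. Others lay from 3381 to 4518 bp at Nrp2 and from 5606 to 6769 bp at Ephb3. At 3 members Ring1B was listed in NeuP and in no ESC list: Plxnb3, Sema3a and Sema6d. This share (4.29%, against 4.49%) was near that of all genes. All 3 rose, but how many of all such genes rose was not counted. Sema3a had a Cbx7 peak in control ESC. At Plxnb3 the NeuP peak ran from -697 to 79 bp relative to the TSS, and at Sema6d from -2475 to -1975 bp. The header of the NeuP peak list names an IgG library of ESC as the control for peak calling. The ChIP control among the samples is labelled input, and no sample is labelled IgG.

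With hairpin #2, Ring1B was listed at 35 of 70 members where the control list had none (as at 18.4% of all genes), and Ephb3 was the 1 member listed in the control alone. At 11 members (15.7%, against 3.51% of all genes) all 3 ESC lists had Ring1B: Efna5, Efnb2, Ephb1, Ephb4, Nrp1, Nrp2, Ntn1, Plxna4, Sema4b, Sema5b and Sema6a.

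**Figure D5:**
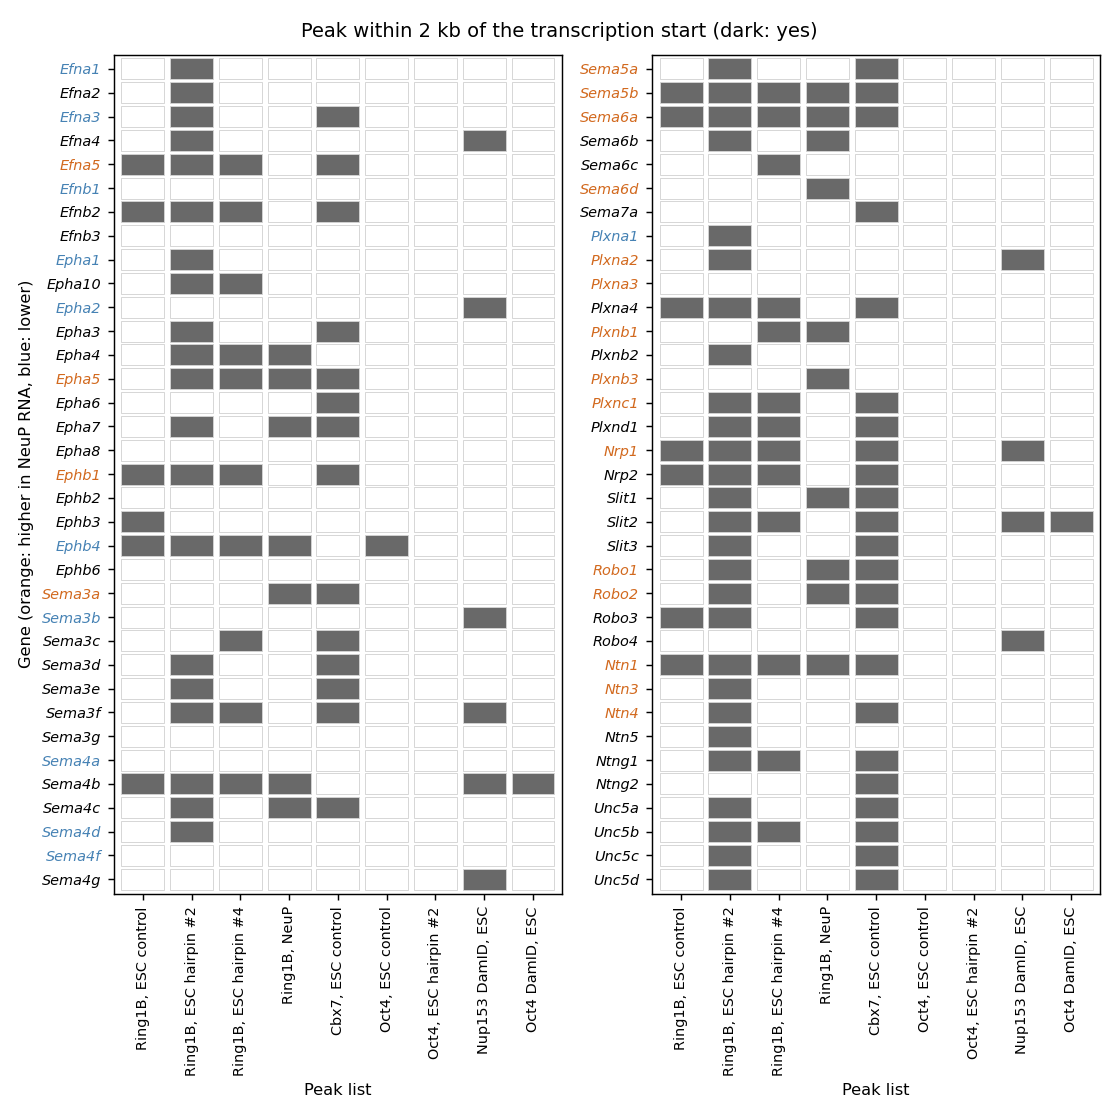
Peaks within 2 kb of the TSS for each of the 70 axon guidance genes (rows, 2 panels, ordered by family) in the 9 peak lists (columns), dark cells marking a peak. Gene names are orange where RNA rose in NeuP, blue where it fell and black otherwise; the hairpin #2 Ring1B and Cbx7 columns hold the most dark cells (47 and 37), and 9 genes have none.

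Nup153 DamID peaks lay at 10 members (14.3%, against 5.91% of all genes): Efna4, Epha2, Nrp1, Plxna2, Robo4, Sema3b, Sema3f, Sema4b, Sema4g and Slit2. They took in ESC-high genes such as Epha2, which fell in NeuP, and ESC-low ones such as Nrp1, which rose. Of the 10, Nrp1 and Plxna2 rose, Epha2 and Sema3b fell, 5 were not called and Robo4 was under 1 FPKM. Over all 1419 genes with such a peak, 172 rose and 448 fell, so falls outnumbered rises there. A peak lay at 10.5% of the members that rose (against 6.84% of all genes that rose). It lay at 18.2% of those that fell (against 13.1%). At 6 of the 10 members (60.0%, against 75.3% of all genes with a Nup153 DamID peak) the peak covered the TSS. Among these were Nrp1 (chr8:130879719-130884368) and Sema4g (chr19:45061579-45066292). Nrp1, Sema3f and Slit2 had Cbx7 as well (30.0%, against 16.3% of all genes with a Nup153 DamID peak). After knockdown the log2 changes of the 9 tested ones ran from -0.29 ± 0.19 in Sema3b to 0.50 ± 0.29 in Epha2, with 0 called. Oct4 DamID peaks lay at Sema4b and Slit2 (2.86%, against 2.8% of all genes), which both had a Nup153 DamID peak. By Oct4 ChIP, control ESC had a peak at 1 member (1.43%, against 0.733%), Ephb4, at chr5:137791047-137791223, from -290 to -114 bp relative to its TSS, and hairpin #2 ESC at 0 (against 0.712%). Ephb4 RNA was 14.3 FPKM in the control and 19.1 and 19.8 FPKM with hairpins #2 and #4, higher with both hairpins but not called (log2 change 0.42 ± 0.19, adjusted p = 0.856). Efnb1, Efnb3, Epha8, Ephb2, Ephb6, Plxna3, Sema3g, Sema4a and Sema4f had no peak in any of the 9 lists (12.9%, against 61.9% of all genes).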

How the data were processed

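RNA was measured in 5 libraries and protein-DNA contact in 9 peak lists. The authors deposited FPKM values for 24016 transcripts, 1 per symbol, with transcript coordinates in mm9. Per the submitters' processing notes, CASAVA 1.8.2, STAR 2.2.0c, Bowtie2 2.1.0, HOMER 4.6 and edgeR (no version) were used. The deposited peak lists hold positions without heights. HOMER findPeaks made the ChIP lists, per the file headers, with the factor style for Oct4 and the histone style otherwise, and with ESC IgG as background in every case. Each DamID list joins 2 replicates in a way not given in the sources used here.

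Low FPKM values were whole multiples of 1 fragment within 0.1 (100% of those examined), which gave depths and recovered counts. Genes with at least 1 FPKM in at least 1 library were fitted with limma 3.58.1 (R 4.3.3; limma-trend on log2(FPKM + 1), 3 groups, two-sided, Benjamini-Hochberg over 13750 genes, 0.05). The fit had 2 residual degrees of freedom plus a prior of 1.74. The lone control library was taken to have the spread of the others. The labels do not say that libraries came from separate cultures, so p-values measure only the spread between these samples. The fit was tested on simulated data. Peaks were joined to genes in Python 3.11.15 (numpy 2.4.6, pandas 2.3.3). Peak counts carry no test, since each condition had 1 list.

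Genes are named by a rule: among called genes, the 8 largest rises and falls in NeuP; the 5 largest rises and falls shared by both hairpins; members with DamID or Oct4 peaks; members with Ring1B in control ESC but not NeuP, or only in NeuP; and the highest member of each family. Others were named after their values were seen. The members and lists were chosen with earlier results of these data known. Alternatives were another pseudocount, no filter, quantile normalization, voom on recovered counts, other groupings, leaving out each library, and other peak windows and widths.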

Additional observations from a re-analysis of the deposited data

How the results depend on the processing

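With 1 control library and 2 libraries in each other group, the calls rest on few degrees of freedom. Of the 30 genes called in NeuP, 7 (Efna1, Epha1, Nrp1, Plxnc1, Sema3b, Sema4f and Sema6a) passed under all 10 alternatives. Ephb1 was lost under 6, Plxnb1 under 5, and Ntn3 and Robo2 under 4 each. Leaving out 1 hairpin library or 1 NeuP library left the same residual degrees of freedom, fewer than in the main fit. Without a hairpin library the residual spread came from the NeuP pair alone, and fewer genes were called than in the main fit. Without a NeuP library it came from the hairpin pair alone, and more genes were called. Leaving out NeuP replicate 1 gave 27 higher (51.9%) and 16 lower (30.8%), against 34.1% and 43.1% of all tested genes, and leaving out replicate 2 gave 28 (53.8%) and 15 (28.8%), against 33.6% and 48.2%. With no filter on low values 11 were higher and 12 lower. Ntng2 changed direction without NeuP replicate 1 (log2 change -0.51, against 1.14 without replicate 2). Quantile normalization, voom, pseudocounts of 0.1 and 5 and pooling of the 3 ESC libraries gave 15 to 23 higher and 11 to 14 lower. These were 28.8% to 44.2% and 21.2% to 26.9% of the 52, against 16.2% to 24.3% and 20.8% to 37.9% of all tested genes. The knockdown had 0 members called under every alternative. With no filter on low values, 0.229% of all genes were called higher and 0.729% lower in the knockdown. At an unadjusted limma p under 0.05, the 3 ESC libraries alone gave 18 members higher (34.6%, against 24.2% of all tested genes). They gave 1 lower (1.92%, against 9.74%). No paired analysis was possible because the hairpin numbers do not match the NeuP replicate numbers and each DamID list pools its replicates.

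Peak counts moved with the window. Where the peak had to overlap the TSS, members numbered 0, 24, 6 and 3 for the Ring1B lists (control ESC first, then hairpins #2 and #4, then NeuP), 16 for Cbx7, 6 for Nup153 DamID, and 0 for Oct4 DamID and for Oct4 in the control; Ring1B in control and NeuP fell to 0, in control and not NeuP to 0, and in NeuP and no ESC list to 1. Within 1 kb, Ring1B in the control had 7, Oct4 DamID 0, Ring1B in control and NeuP 3, and in control and not NeuP 4. Within 5 kb, Oct4 with hairpin #2 had 1, Nup153 DamID 16 and Oct4 DamID 4. With peaks of at least 1 kb width, Ring1B had 4, 27, 9 and 3 in the same order, 1 in control and NeuP, 3 in control and not NeuP, and 1 in NeuP and no ESC list. The Cbx7 count was 37 within 5 kb and 32 within 1 kb.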
